A study of Mus musculus with 6 samples.

Results

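Cells with transcripts of DNA replication were examined in a single-cell study of mouse alveolar type II (ATII) cells, the surfactant-making cells that also serve as stem cells of the alveolar epithelium. They were picked by their own counts of unique molecular identifiers (UMIs, tags that count single RNA molecules). Eligible cells had at least 1000 UMIs and no UMI of the mitotic genes Plk1, Ccnb1, Ccnb2, Cenpa and Cdc20. Of these, the 6% with the highest summed UMI fraction of Pcna, Mcm2, Mcm3, Mcm5, Mcm6, Rrm2, Tyms, Tk1, Hells and Gins2 were taken in each of 2 libraries and are called S-phase-rule cells. They numbered 246 of 4097 eligible cells in the second library and 656 of 10928 in the third, or 902 of the 36584 cells in the deposited matrix. Mitotic-rule cells, set beside them, were the 6% of all cells with the highest summed fraction of the 5 mitotic genes (336 and 876 cells). Comparison cells held at most 1 UMI over all 15 genes, had at least 1000 UMIs and were not among the S-phase-rule cells (3964 and 10787 cells).

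Per the labels, there were 3 expression libraries, each the only library of its group, besides 3 tag libraries that were not used here. One held day 13 cultures from young mice, another day 13 cultures from both young and old mice, and the last the day 0 sort, made fresh from both ages, all with a wild-type IL4Ra genotype and all sorted as live by exclusion of the dye Sytox blue. Cultured cells grew as alveolarspheres without serum or feeder cells and received the cytokine at 10 ng/ml or PBS from day 3. IL-4 is the cytokine of the series title, the design text numbers it differently, and the labels give the treatment of every library as mixed, the day 0 one included. Barcodes carry 3 library tokens that match no label, so the tokens are called the first, the second and the third library in order of appearance, and the day, age, mouse and treatment of each cell are unknown. Every difference below is between cells of the same library, and an unequal mix of ages and treatments between classes of cells cannot be told apart from it. Since each group has 1 library, no test was run. Bounds in parentheses are exact 95% limits for counting error alone. The rule used the expression of these same cells, so the values describe what the rule picked and do not test it.

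A cell that copies its DNA first licenses origins with the MCM helicase, which Cdc6 and Cdt1 load. It then fires them with the GINS complex, and polymerases that slide on the clamp Pcna extend the strands. E2F factors switch on these genes at the border of G1 and S, together with enzymes of nucleotide supply, and histones are made while the fork runs. Transcripts of mitosis accumulate later, in G2. In the adult lung ATII cells divide rarely and enter the cycle after injury or in culture.

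UMIs summed to 63658436, 48677816 and 53372634 in the first, the second and the third library, with medians of 3749, 8348.5 and 3336 per cell. S-phase-rule cells had a median of 7663 UMIs in the second and 4212 in the third library, mitotic-rule cells 11667.5 and 5102, and comparison cells 7833 and 3088. Their median share of mitochondrial UMIs was 0.737 and 0.647%, against 0.667 and 0.575% in mitotic-rule and 0.819 and 0.640% in comparison cells. Libraries shared 20, 67 and 22 cell barcodes for the first with the second, the first with the last and the second with the last, and 0 S-phase-rule barcodes occurred in both the second and the third library.

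The rule reached down to cells with very few transcripts. The lowest cell inside it had 270 CPM (counts per 1000000 UMIs) of the 10 genes in the second library, which was 1 UMI of 3709, and the highest cell outside had 268 CPM, 1 UMI of 3730. In the third library both stood at 536 CPM, with 3 UMIs of 5598 inside and 1 UMI of 1867 outside. S-phase-rule cells held a median of 3 and 4 UMIs of the 10 genes, and 35 of 246 (14.2%) and 68 of 656 (10.4%) held 1. At least 3 different genes of the 10 were seen in 139 (56.5%) and 402 (61.3%) of them, while 68.3 and 79.5% of eligible cells held 0 UMIs of the 10 genes. Membership of a cell with 1 UMI depends on how deeply the cell was read, and the cells with 1 UMI had medians of 2929 and 1650 UMIs.

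The 10 genes that chose the cells were all far above the comparison cells, as the rule sets. CPM values are of molecules counted at the 3 prime end and are not divided by gene length, so they are compared between cells and not between genes. Mcm3 (ENSMUSG00000041859, chromosome 1, 20802968 to 20820312, minus strand, GRCm38), a helicase subunit, stood at 71.6, 12.5 and 0.594 CPM in S-phase-rule, mitotic-rule and comparison cells of the second library, and at 132, 11.6 and 2.07 CPM in the third. Mcm5 stood at 52.4, 13.8 and 0.250 CPM, and at 79.7, 13.3 and 1.36 CPM. Pcna stood at 88.7, 26.1 and 8.28 CPM, and at 111, 17.5 and 7.09 CPM. For Rrm2, the small subunit of ribonucleotide reductase, the values were 73.1, 54.8 and 1.47 CPM, and 113, 47.0 and 1.84 CPM.

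Each of the 10 genes was also left out of the ranking in turn and measured in the cells picked by the other 9. For these folds alone, comparison cells were chosen anew per gene. They held at most 1 UMI over the other rule genes, with no limit on the gene left out. The log2 folds over comparison cells (pseudocount 1 CPM) were then 2.21 for Pcna to 4.89 for Mcm5 in the second library and 2.62 for Tyms to 4.35 for Rrm2 in the third. Left out, Mcm3 still had 4.68 and 4.07 and Hells, a chromatin remodeller, 3.76 and 3.64. Per cell, transcripts were sparse. Tyms, thymidylate synthase, was seen in 56.9% (50.5 to 63.2%) of S-phase-rule cells of the second library and 48.0% (44.1 to 51.9%) of those of the third, against 63.7 and 40.4% of mitotic-rule and 6.43 and 3.46% of comparison cells. Mcm5 was seen in 27.6 and 26.8% of S-phase-rule cells, 14.6 and 6.28% of mitotic-rule cells and 0.202 and 0.445% of comparison cells.

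Outside the rule, 169 of 4467 genes with at least 20 CPM in either class in both libraries were at least 2-fold higher in S-phase-rule than in comparison cells of both libraries, which is 3.78%. At least 2-fold lower were 4, or 0.0895%. The same size rule gave 219 higher and 14 lower genes in the second library alone (4.48 and 0.287% of those measured) and 305 and 61 in the third alone (6.31 and 1.26%). Of the 169 genes, 82 (48.5%) belong to a list of cell cycle genes, 6 to another list and 81 to none. The median log2 fold of all 4467 genes was 0.13 in the second and 0.11 in the third library, and changes are best read relative to it. Under TMM factors it was -0.15 and -0.09.

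The 123 replication genes that the rule did not use, from lists of licensing, polymerases, nucleotide supply, chromatin and repair, were as a group well above the comparison cells. Of the 73 measured, 51 passed as higher in both libraries and 0 as lower, against 3.78% higher among all genes. Their median log2 fold was 1.90 and 2.06. A gene that reached 20 CPM only in S-phase-rule cells, such as Cdc6, could not pass as lower. These counts and the median are thus partly set by that filter, as are those of the lists below. The sums that follow take all 123 genes and do not use the filter. Together they held 8095 CPM in S-phase-rule and 3242 CPM in comparison cells of the second library, a log2 fold of 1.32 (1.30 to 1.34), and 10413 and 3836 CPM in the third, a log2 fold of 1.44 (1.42 to 1.46). In the first library the same rule took 959 cells, and the corresponding sums were 3264 and 2993 CPM, a log2 fold of 0.13 (0.10 to 0.15). There the cut fell at 326 CPM, 51.7% of the cells taken held 1 UMI of the 10 genes, and 3.13% held at least 3 of the genes.

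**Figure D1:**
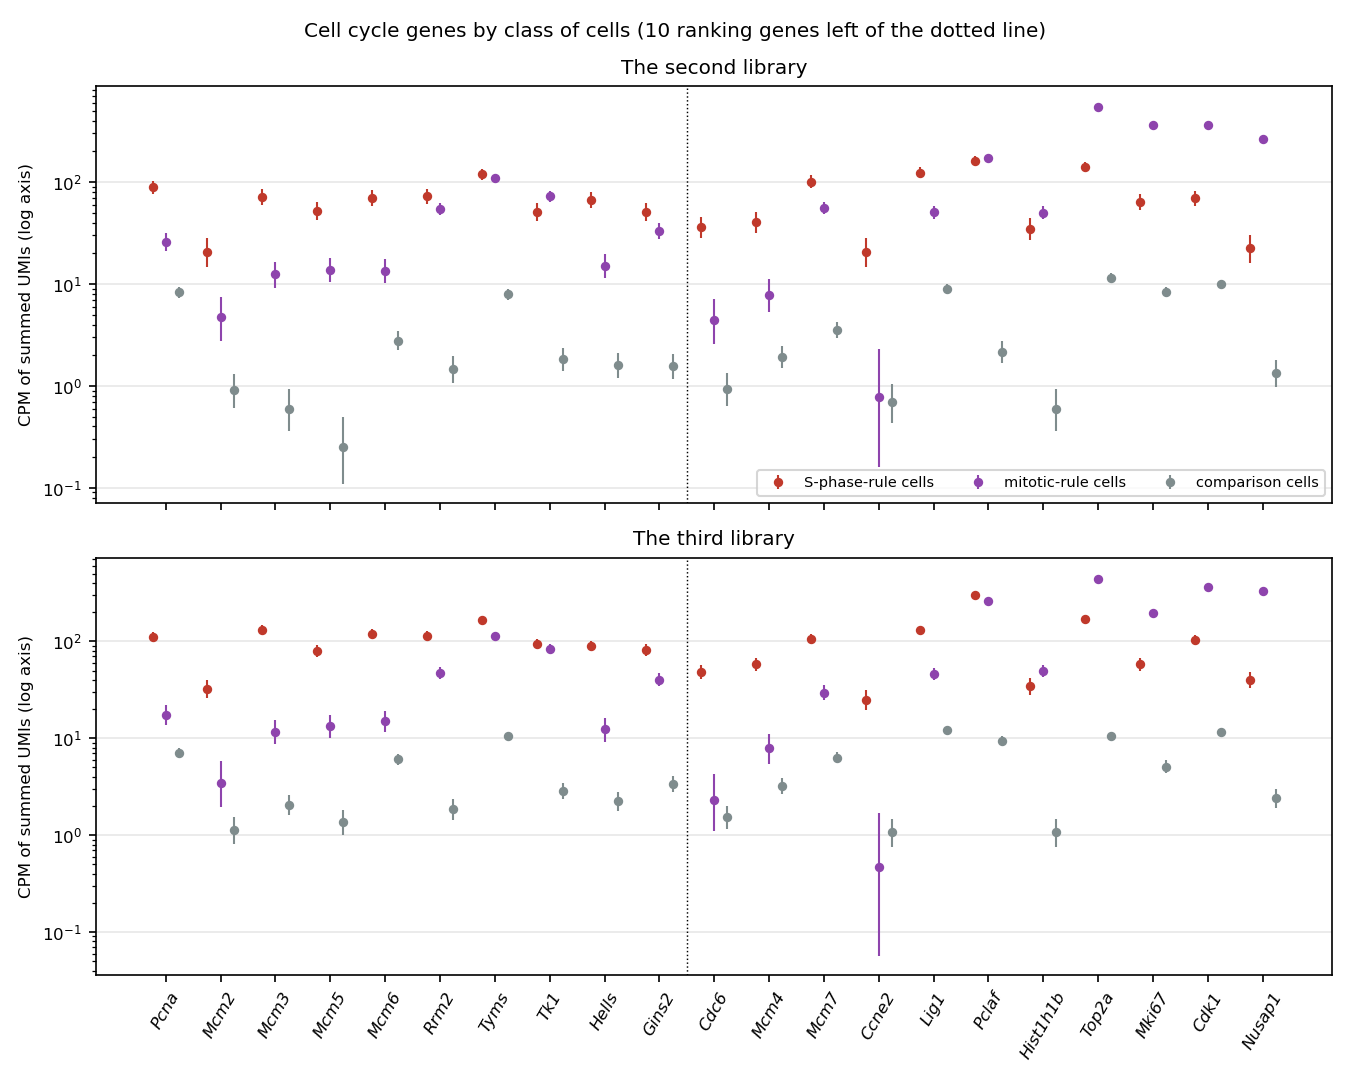
Levels of cell cycle genes (CPM of summed UMIs, log axis) in S-phase-rule, mitotic-rule and comparison cells of the second (top) and the third library (bottom). Bars are 95% exact Poisson intervals, which cover counting error only. The genes left of the dotted line ranked the cells. Cdc6, Mcm4 and Ccne2 are highest in S-phase-rule cells, and Top2a, Mki67, Cdk1 and Nusap1 in mitotic-rule cells, in both libraries.

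Origin licensing genes had the largest summed fold over comparison cells of the lists outside the rule. Of 10 measured, 9 passed as higher in both libraries, against 3.78% of all genes. The 22 listed summed to 707 and 104 CPM in S-phase-rule and comparison cells of the second library (log2 fold 2.77). In the third library the sums were 897 and 128 CPM (log2 fold 2.80). Cdc6, the loader of the MCM ring (ENSMUSG00000017499, chromosome 11, 98907801 to 98923940, plus strand), had 36.3 CPM (28.3 to 45.9) in S-phase-rule, 4.43 in mitotic-rule and 0.938 in comparison cells of the second library. In the third it had 48.3 CPM (40.4 to 57.3), 2.33 and 1.53. Mcm4, a helicase subunit the rule did not use, had 40.4, 7.82 and 1.94 CPM in the second library and 58.3, 7.92 and 3.20 CPM in the third. Over comparison cells, mitotic-rule cells had log2 folds of 1.49 and 0.39 for Cdc6 and of 1.59 and 1.08 for Mcm4. Mcm7 had 101, 56.1 and 3.56 CPM and then 105, 29.6 and 6.32 CPM, an intermediate level in mitotic-rule cells. Geminin (Gmnn), which blocks licensing once S phase has begun, had log2 folds over comparison cells of 2.91 and 3.33. Gins4, a subunit of the firing complex, did not pass the size rule, with 1.36 and 0.81.

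At the fork, 14 of 18 measured genes of polymerases, clamp loading and ligation passed as higher in both libraries and 0 as lower. All measured genes gave 3.78% higher and 0.0895% lower. Lig1, the ligase that joins Okazaki fragments, had 124, 50.6 and 8.91 CPM in S-phase-rule, mitotic-rule and comparison cells of the second library and 130, 45.9 and 12.1 CPM in the third. Pclaf, a factor that binds Pcna (ENSMUSG00000040204, chromosome 9, 65890237 to 65903266, plus strand), had the largest fold of the genes outside the rule with at least 50 CPM, by the smaller value of both libraries. It stood at 162 CPM (144 to 181), 171 CPM and 2.16 CPM in the second library and at 297 CPM (277 to 319), 258 CPM and 9.47 CPM in the third. Over mitotic-rule cells, Pclaf had log2 folds of -0.078 and 0.20, and Lig1 1.28 and 1.49. The primase gene Prim1 had log2 folds of 3.54 and 3.47 and the single-strand binding protein gene Rpa2 3.49 and 3.05. Rnaseh2c and Pole3 did not pass, with 0.72 and 0.49 and with 0.73 and 0.56.

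Most measured repair and chromatin genes were higher too, against 3.78% of all genes. In the list of fork protection and repair, 7 of 8 measured genes were higher in both libraries, among them Clspn, the claspin adaptor of the fork checkpoint (log2 folds 4.41 and 4.24), and the cohesin acetyltransferase Esco2 (3.80 and 3.88). Tonsl did not pass (0.24 and -0.08). In chromatin assembly and DNA methylation, 15 of 20 were higher, led by the histone chaperone Asf1b (4.18 and 3.83), by Uhrf1, which brings the maintenance methylase to new DNA (3.91 and 3.71), and by Chaf1b, a subunit of the assembly factor CAF-1 (2.67 and 3.32). The chaperone Asf1a had 0.35 and 0.28 and did not pass.

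Nucleotide supply was less uniform, with 6 of 17 measured genes higher in both libraries, against 3.78% of all genes. Rrm1 (log2 folds 3.03 and 2.64), the large subunit of ribonucleotide reductase and Dut (2.68 and 2.75), which removes dUTP, were far above comparison cells. Adk, adenosine kinase, was not (0.19 and 0.31). Mthfd2, a mitochondrial folate enzyme, differed between the libraries. It stood at 51.3 CPM in S-phase-rule, 64.9 in mitotic-rule and 63.4 in comparison cells of the second library, and at 73.0, 45.6 and 13.8 CPM in the third.

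Regulators of the G1 to S step passed for 6 of 10 measured genes. Ccne2, a cyclin E gene (ENSMUSG00000028212, chromosome 4, 11191351 to 11204779, plus strand), had 20.7 CPM (14.8 to 28.2), 0.782 and 0.688 CPM in S-phase-rule, mitotic-rule and comparison cells of the second library, and 25.1 CPM (19.5 to 31.8), 0.466 and 1.08 CPM in the third. Ccne1 showed the same order of S-phase-rule over the other classes, at 16.1, 0.782 and 1.44 CPM and at 16.2, 0.699 and 1.28 CPM, but stayed under 20 CPM. Dtl, part of the ligase that destroys Cdt1, had log2 folds over comparison cells of 3.75 and 3.71, and Fbxo5, which inhibits the anaphase-promoting complex, 3.84 and 4.07. The D cyclins did not pass. Ccnd1 had 230, 136 and 169 CPM and then 195, 115 and 137 CPM (log2 folds over comparison cells 0.44 and 0.51). Ccnd2 stood at 0 CPM in S-phase-rule cells of the second library, which allows up to 1.91 CPM, and at 0.369 CPM in those of the third. Of CDK inhibitors and p53 targets, 0 of 9 were higher and 1 was lower, against 3.78% and 0.0895% of all genes. Cdkn2b, which holds back the cyclin D kinases, had 20.7, 28.2 and 42.5 CPM and then 17.3, 26.8 and 42.6 CPM, while Cdkn1a, p21, had log2 folds of 0.06 and -0.21.

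Replication-dependent histones are made in S phase and most of their transcripts carry no poly(A) tail, which limits how well a 3 prime kit counts them. Near-identical members of this family can also share reads. Of 7 measured, 6 passed as higher than in comparison cells in both libraries, against 3.78% of all genes. Their sum was 771 CPM in S-phase-rule, 1680 in mitotic-rule and 273 in comparison cells of the second library, and 458, 687 and 98.0 CPM in the third. Hist1h1b, a linker histone, had 34.7, 50.1 and 0.594 CPM and then 34.3, 49.6 and 1.08 CPM. Hist1h2bc did not pass (log2 folds 1.03 and -0.10).

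**Figure D2:**
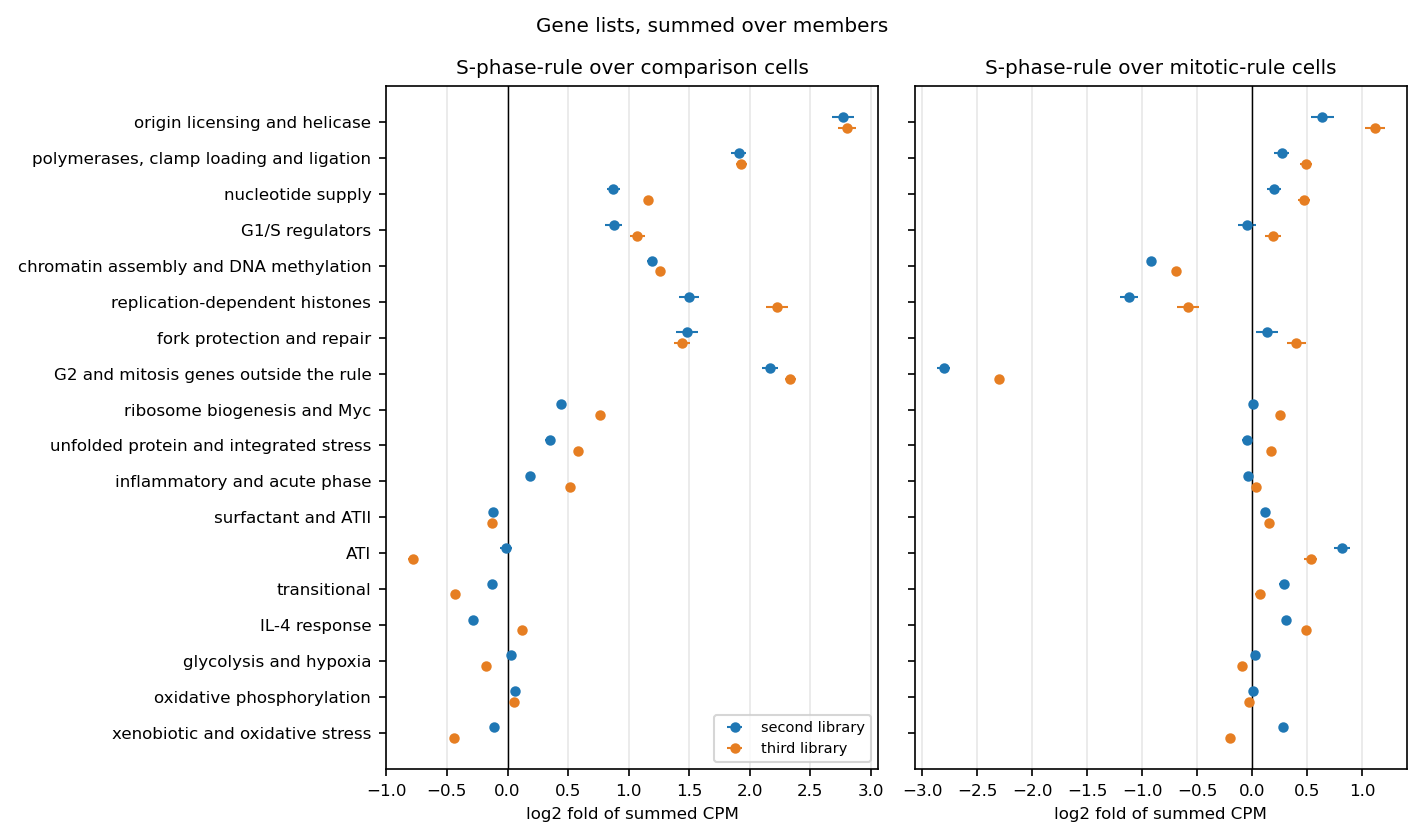
Summed level of 18 gene lists in S-phase-rule cells over comparison cells (left) and over mitotic-rule cells (right), as log2 folds of summed CPM for the second and the third library. Bars are 95% exact intervals of the ratio, which cover counting error only. All 7 replication, G1/S and histone lists and the G2 and mitosis list lie right of 0 over comparison cells in both libraries, while the chromatin, histone and G2 and mitosis lists lie left of 0 over mitotic-rule cells.

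The rule removed cells with a UMI of 5 mitotic genes, yet other genes of G2 and mitosis were above comparison cells. Of 45 listed genes outside the rule, 21 were measured, and 19 of these passed as higher in both libraries and 0 as lower. For all genes the shares were 3.78% and 0.0895%. The list summed to 1321, 9231 and 294 CPM in S-phase-rule, mitotic-rule and comparison cells of the second library and to 1853, 9123 and 367 CPM in the third. Top2a, the topoisomerase that untangles chromosomes, had 141 CPM (125 to 159), 546 and 11.5 CPM and then 171 CPM (156 to 187), 444 and 10.5 CPM. Mki67, the gene of the proliferation marker Ki-67, had 64.3, 362 and 8.35 CPM and then 58.3, 195 and 5.10 CPM. Cdk1, the mitotic kinase, had 69.5, 363 and 9.91 CPM and then 103, 363 and 11.6 CPM. Nusap1, a spindle protein, had 22.3, 267 and 1.34 CPM and then 39.8, 332 and 2.41 CPM. In all 4 genes S-phase-rule cells lay between the other classes in both libraries. Pttg1, securin, did not pass, at 39.4, 61.8 and 32.6 CPM and 34.7, 59.6 and 34.1 CPM.

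S-phase-rule cells were next set against mitotic-rule cells. Of 4782 genes measured, 37 (0.774%) passed as higher in both libraries and 148 (3.09%) as lower. In the second library alone 1.09% passed as higher and 4.39% as lower, and in the third alone 1.58 and 3.5%, and the median log2 fold of all genes was -0.04 and -0.02. This comparison shares its S-phase-rule cells with the one above, so the lists of genes are not independent. Of the 37, 21 (56.8%) are on a cell cycle list, and 27 were also higher than in comparison cells, whereas 31 genes were higher than in comparison cells and lower than in mitotic-rule cells. Ung, the uracil glycosylase that clears uracil from new DNA, had 58 UMIs in S-phase-rule and 1 in mitotic-rule cells of the second library (log2 interval of the ratio 4.31 to 12.18) and 93 and 2 in the third (4.31 to 9.27). Cdc6 had log2 folds of 2.78 and 3.89, Mcm4 2.23 and 2.73, and E2f1, a factor that drives the G1 to S genes, 2.16 and 2.72. Cdt1, the licensing factor destroyed once S phase starts, had 1.76 and 2.75.

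Of the 148 genes lower than in mitotic-rule cells, 49 were on a cell cycle list and 99 on no list. Of the 43 measured genes of the G2 and mitosis list, 38 were lower, against 3.09% of all genes. A gene that reached 20 CPM only in mitotic-rule cells could not pass as higher. This count is thus partly set by that filter, and the mitotic-rule cells were themselves picked by genes of mitosis. Within the replication lists, 18 of 76 measured genes were higher (23.7%) and 4 lower (5.26%). Among all genes 0.774% passed as higher and 3.09% as lower, so the count of lower ones is near that share. The lower ones were Dbf4, the activator of the origin-firing kinase Cdc7 (log2 folds -2.47 and -1.61), the chromatin protein genes Hmgb2 (-1.96 and -1.57) and Hmgn2, and H2afx. Sums and medians differed in sign here. Replication genes outside the rule summed to log2 folds of -0.39 and -0.15 over mitotic-rule cells while their median gene stood at 0.33 and 0.67, and the chromatin list summed to -0.92 and -0.69 with a median of 0.09 and 0.27. Cyclin A2, Ccna2, had 18.1 and 165 CPM in S-phase-rule and mitotic-rule cells of the second library and 29.5 and 159 CPM in the third. The CDK inhibitor gene Cdkn2d had 17.6 and 101 CPM and then 22.9 and 106 CPM.

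**Figure D3:**
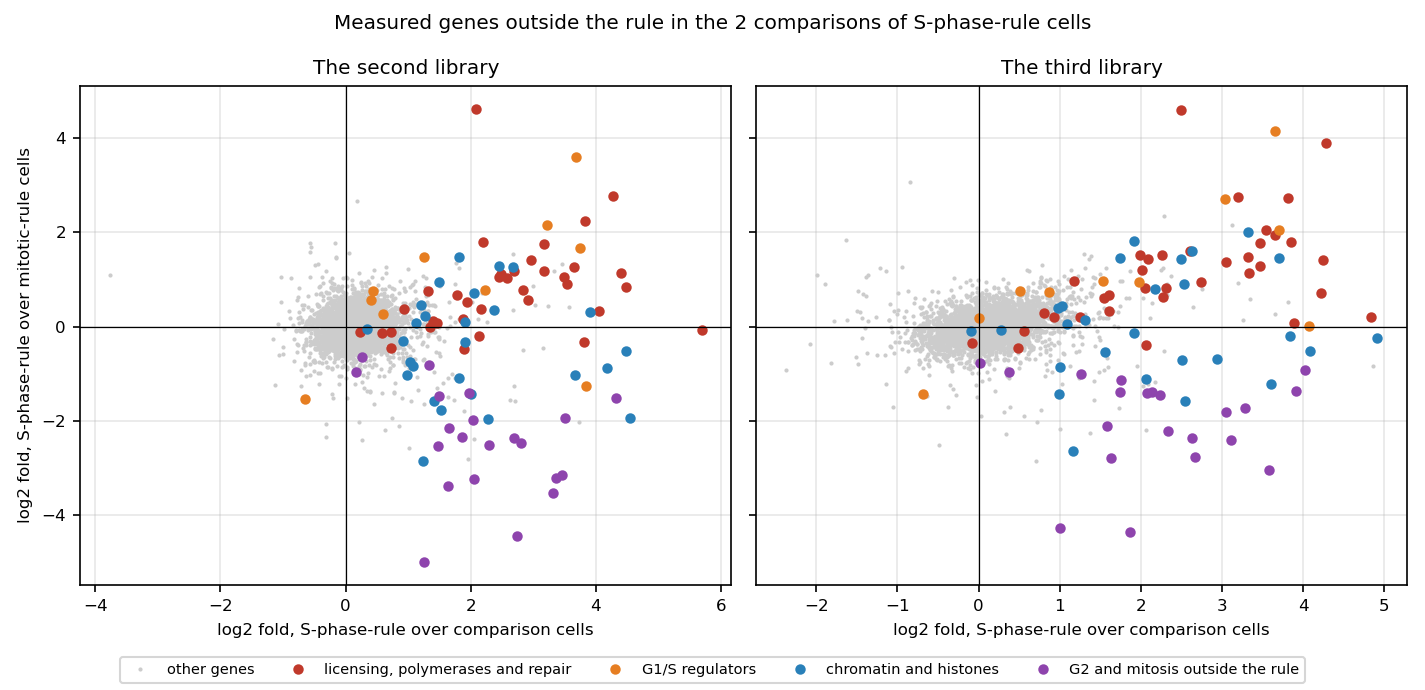
Log2 fold of genes outside the rule in S-phase-rule over comparison cells (x axis) and over mitotic-rule cells (y axis). The second library is on the left and the third on the right. Genes not measured against comparison cells in both libraries are not drawn, and 21 of the 45 listed G2 and mitosis genes were measured there. Grey points are other genes. Licensing, polymerase and repair genes lie mostly above 0 on the y axis and G2 and mitosis genes below it. Both axes share the S-phase-rule cells, so no correlation is given.

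S-phase-rule cells differed among themselves in the cycle transcripts they held. They were split by whether they held a UMI of 5 genes of G1/S (Ccne1, Ccne2, Cdc6, Cdt1, E2f1) or of 3 genes of G2 (Top2a, Mki67, Cdk1). In the second library 21 cells (8.54%) held only the first kind, 80 (32.5%) both, 46 (18.7%) only the second kind and 99 (40.2%) neither. In the third library these were 83 (12.7%), 209 (31.9%), 132 (20.1%) and 232 (35.4%). Cells with both had the highest median depth, 10299.5 and 5064 UMIs, and cells with neither the lowest, 6003 and 2992.5 UMIs, and the part of depth in the split was not tested. Histone transcripts summed to 213 and 207 CPM in cells with only G1/S genes, 1235 and 697 CPM in cells with both, 690 and 590 CPM in cells with only G2 genes and 309 and 100.1 CPM in cells with neither. Cells with neither were thus above those with only G1/S genes in the second library and below them in the third. Pclaf stood at 41.4 and 216 CPM in cells with only G1/S genes and at 322 and 462 CPM in cells with both. It stood at 79.8 and 315 CPM in cells with only G2 genes and at 15.9 and 67.7 CPM in cells with neither. The value of 41.4 CPM rests on 7 UMIs (16.6 to 85.2 CPM), and its bounds overlap those of 79.8 CPM (53.4 to 115 CPM). That of 15.9 CPM rests on 9 UMIs.

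The level of replication genes outside the rule followed a cell's rank. The highest 1% of eligible cells held 12930 CPM of these genes in the second and 12919 CPM in the third library. Cells at ranks of 4 to 6% held 4934 and 7848 CPM, those just outside at 6 to 10% held 3944 and 5829 CPM, and cells with no UMI of the 10 genes 3123 and 3556 CPM. Members with 1 UMI of the 10 genes held 2787 CPM (2475 to 3128) in the second library, under the cells with no such UMI, and 4475 CPM (4087 to 4890) in the third. Members with at least 6 held 11270 and 12807 CPM. To set libraries beside each other, each cell was thinned to 1000 UMIs. Eligibility was read anew from the thinned counts, which gave 16277, 5005 and 12508 cells. Cells that lost their mitotic UMIs in thinning are thus included, and their part in these shares was not tested. At least 2 UMIs of the 10 genes then remained in 0.276% of these cells of the first, 1.66% of the second and 2.34% of the third library. Without thinning, at least 3 such UMIs at or above the cut of the third library were held by 0.319, 2.29 and 4.14% of eligible cells in the same order.

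**Figure D4:**
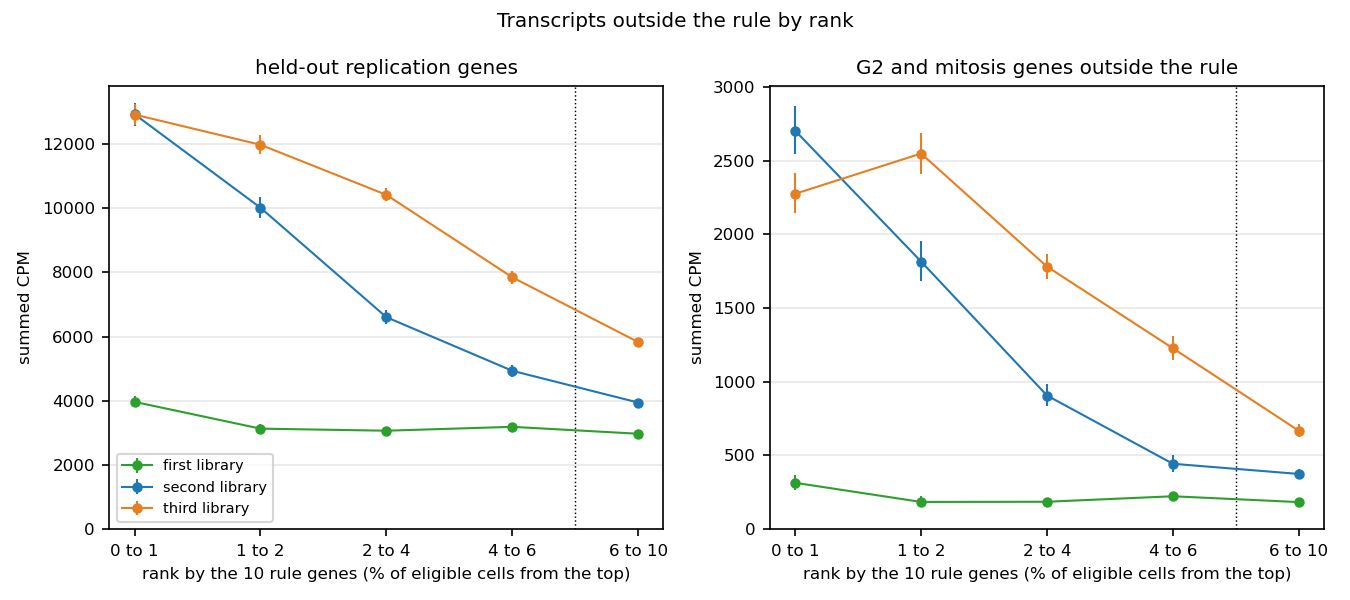
Summed CPM of the 123 replication genes outside the rule (left) and of the G2 and mitosis genes outside the rule (right) by rank on the 10 rule genes in each library. Bars are 95% exact Poisson intervals, and cells left of the dotted line were taken. In the second library the replication genes stand at 12930 CPM in the highest 1% and at 4934 CPM at ranks of 4 to 6%, and the first library stays between 2972 and 3965 CPM.

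Promoters were read for letters of the sites of E2F (TTTGGCGC, TTTCGCGC, TTTCCCGC, TTTGCCGC) and of the CHR, the cell cycle element of mitotic genes (either TTTGAA or the rarer form TTCGAA), on both strands. The windows run from 250 bases before to 50 after the annotated start in RefSeq on GRCm38.p6. Matches of neighbouring motifs can overlap. E2F letters were in 2.26% and CHR letters in 19.2% of all 32851 promoters, and in 4.53% and 13.7% of the 4461 promoters of genes measured in both libraries. Of the 51 replication genes outside the rule that were higher in both libraries, 40 matched by symbol or, failing that, by Ensembl ID. E2F letters were in 34.7% of their 49 promoters, in 17 of the 40 genes, and CHR letters in 22.4%. In the 23 promoters of measured replication genes outside the rule that did not pass, these shares were 13.0% and 8.70%. Among the ranking genes 4 of 9 matched had E2F letters, and 0 of the 5 mitotic rule genes did, while CHR letters were in 4 of these 5. Of the promoters of genes lower than in mitotic-rule cells, 4.93% held E2F and 57.0% CHR letters. Promoters of the 40 genes had a median GC content of 63.3%, against 61.3% in those of measured genes and 52.7% in all promoters, and a match of letters is not a bound site. The promoters shown were chosen because they hold a match, for 4 replication genes with E2F letters in capitals and for 2 genes that exclude a cell from the rule with CHR letters in capitals. Those of the ranking genes Rrm2 and Pcna held no E2F letters, and that of Ccnb1 no CHR letters. In order they are Mcm3 (chr1:20820263-20820562, minus strand), Mcm5 (chr8:75109259-75109558, plus), Mcm6 (chr1:128359656-128359955, minus), Pclaf (chr9:65890073-65890372, plus), Ccnb2 (chr9:70421505-70421804, minus) and Plk1 (chr7:122159185-122159484, plus), each 5′ to 3′ on the gene's strand.
Mcm3: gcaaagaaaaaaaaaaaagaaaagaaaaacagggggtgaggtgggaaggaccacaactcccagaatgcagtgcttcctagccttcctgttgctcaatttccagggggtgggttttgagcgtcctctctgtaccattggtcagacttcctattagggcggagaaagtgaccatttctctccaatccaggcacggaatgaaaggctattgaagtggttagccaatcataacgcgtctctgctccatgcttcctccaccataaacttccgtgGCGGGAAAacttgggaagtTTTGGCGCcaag
Mcm5: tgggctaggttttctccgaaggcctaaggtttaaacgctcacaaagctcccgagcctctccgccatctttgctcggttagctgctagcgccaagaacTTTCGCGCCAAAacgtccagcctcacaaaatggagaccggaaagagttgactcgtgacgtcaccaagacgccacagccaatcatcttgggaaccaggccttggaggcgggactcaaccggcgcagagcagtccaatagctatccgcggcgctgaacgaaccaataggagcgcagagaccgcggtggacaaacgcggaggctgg
Mcm6: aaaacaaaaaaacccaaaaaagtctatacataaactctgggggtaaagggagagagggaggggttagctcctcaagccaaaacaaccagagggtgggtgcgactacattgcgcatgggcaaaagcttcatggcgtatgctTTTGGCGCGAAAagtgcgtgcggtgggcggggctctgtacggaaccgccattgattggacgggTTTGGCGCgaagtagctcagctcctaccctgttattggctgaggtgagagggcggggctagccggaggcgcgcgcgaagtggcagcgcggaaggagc
Pclaf: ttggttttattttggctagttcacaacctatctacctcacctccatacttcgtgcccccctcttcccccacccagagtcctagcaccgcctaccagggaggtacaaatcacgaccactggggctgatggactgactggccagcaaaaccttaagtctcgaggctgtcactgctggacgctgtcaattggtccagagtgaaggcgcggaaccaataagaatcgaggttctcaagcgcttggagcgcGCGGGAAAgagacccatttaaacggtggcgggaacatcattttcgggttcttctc
Ccnb2: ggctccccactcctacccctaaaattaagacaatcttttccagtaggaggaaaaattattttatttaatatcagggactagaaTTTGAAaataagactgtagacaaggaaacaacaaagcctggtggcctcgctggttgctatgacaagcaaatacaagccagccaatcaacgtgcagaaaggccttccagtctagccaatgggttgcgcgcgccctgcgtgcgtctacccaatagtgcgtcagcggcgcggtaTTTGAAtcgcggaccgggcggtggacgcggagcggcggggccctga
Plk1: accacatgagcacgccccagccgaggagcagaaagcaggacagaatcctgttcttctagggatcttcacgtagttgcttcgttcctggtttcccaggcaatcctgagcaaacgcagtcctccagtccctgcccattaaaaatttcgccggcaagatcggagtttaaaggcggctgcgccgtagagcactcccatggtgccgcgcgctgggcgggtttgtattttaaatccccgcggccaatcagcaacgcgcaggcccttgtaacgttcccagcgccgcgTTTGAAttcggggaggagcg
In Mcm5 and Mcm6 matches on the 2 strands overlap and form 1 longer run of capitals.

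S-phase-rule cells carried the genes of ATII cells. Of 19 measured genes of surfactant and ATII identity, 0 passed the size rule in either direction, which is near the share of all genes (3.78% higher and 0.0895% lower). Sftpc, surfactant protein C (ENSMUSG00000022097, chromosome 14, 70520949 to 70524081, minus strand), had 122597 CPM in S-phase-rule, 114358 in mitotic-rule and 131960 in comparison cells of the second library, and 105277, 99087 and 123298 CPM in the third. The list summed to a log2 fold over comparison cells of -0.12 in both libraries, while the median gene stood at 0.04 and -0.07. Under TMM factors the sums had -0.40 and -0.32. Against mitotic-rule cells the list had 0.11 and 0.15.

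Markers of alveolar type I (ATI) cells, which form the thin barrier for gas, and of the transitional state before them held 9 and 14 measured genes. Of these, 0 passed in both libraries, against 3.78% higher and 0.0895% lower among all genes. In the third library alone, 4 genes of each list were at least 2-fold lower than in comparison cells, against 1.26% of all genes measured there, and in the second library 0. ATI genes summed to 1694, 964 and 1709 CPM in S-phase-rule, mitotic-rule and comparison cells of the second library and to 1841, 1277 and 3159 CPM in the third, log2 folds over comparison cells of -0.01 (-0.06 to 0.04) and -0.78 (-0.82 to -0.74). Transitional genes summed to 3676, 3012 and 4006 CPM and then to 2943, 2805 and 3985 CPM. Their log2 folds over comparison cells were -0.12 (-0.16 to -0.09) and -0.44 (-0.47 to -0.40). Under TMM factors the ATI sums had -0.29 and -0.97 and the transitional sums -0.40 and -0.63. The median of all genes was then -0.15 and -0.09. Ager, a membrane receptor of ATI cells, had 241 and 208 CPM in S-phase-rule and comparison cells of the second library and 269 and 649 CPM in the third. Against mitotic-rule cells, Hopx (37.8 and 14.6 CPM, then 60.5 and 27.7 CPM), Clic5 and Akap5 of the ATI list passed as higher in both libraries, as did the transitional gene S100a6 (92.3 and 30.8 CPM, then 24.3 and 6.05 CPM).

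Retnla, a secreted protein that IL-4 induces (ENSMUSG00000061100, chromosome 16, 48842551 to 48844461, plus strand), was at a like level in S-phase-rule and comparison cells. It stood at 12084 CPM (11929 to 12240), 9012 CPM and 12027 CPM in S-phase-rule, mitotic-rule and comparison cells of the second library, and at 25341 CPM (25151 to 25531), 18310 CPM and 22918 CPM in the third. Its log2 folds over comparison cells were 0.01 and 0.14, against a median of 0.13 and 0.11 for all genes. TMM factors, which lower that median to -0.15 and -0.09, lower these folds too. Eligible cells were also cut into terciles by Retnla. In the second library the rule took 9.08% of the lowest, 3.29% of the middle and 5.64% of the highest tercile, and in the third 4.80, 6.78 and 6.43%. The lowest tercile of the second library was read less deeply (median 6011 UMIs, against 8814.5 and 8934). After thinning to 1000 UMIs, with terciles and rule applied anew, the shares were 6.53, 4.68 and 6.77% in the second and 5.18, 6.45 and 6.36% in the third library. The lowest and the highest tercile of the second library thus had like shares after thinning, with the middle one lower. In the third library the lowest tercile had the lowest share in both versions, but after thinning it was wholly at 0 UMIs of Retnla and the middle one began at 0, so equal values were split between them.

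**Figure D5:**
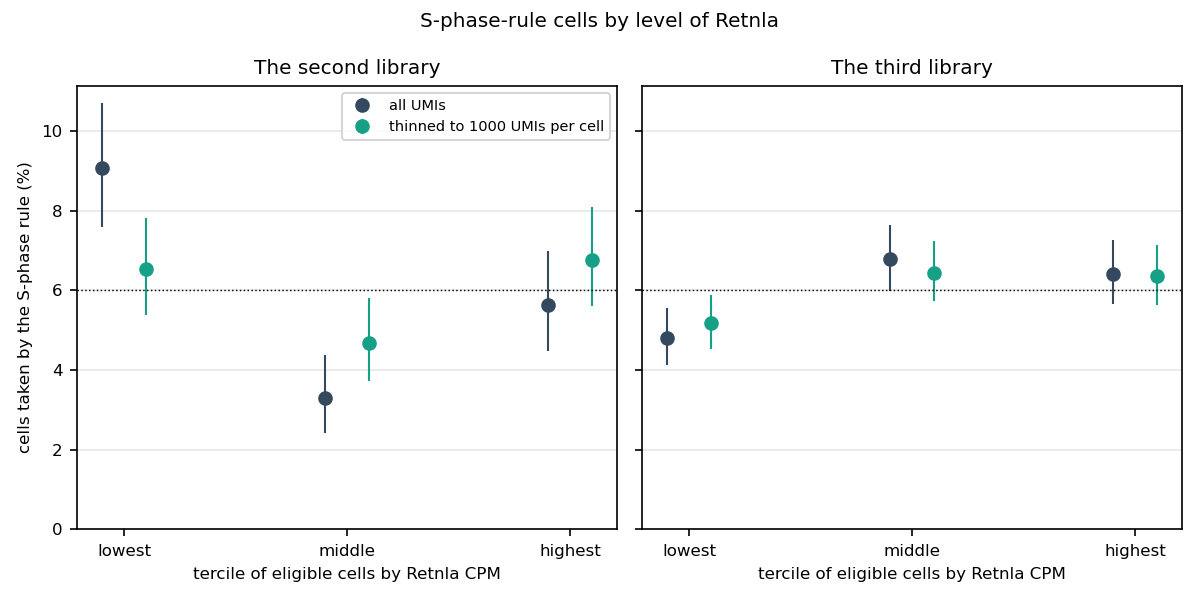
Share of eligible cells taken by the S-phase rule in each tercile of Retnla CPM, in the second (left) and the third library (right), from all UMIs and after thinning each cell to 1000 UMIs. Bars are exact binomial intervals, and the dotted line marks the 6% that the rule takes overall. In the second library the lowest tercile is at 9.08% from all UMIs and at 6.53% after thinning.

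Of the 8 measured genes of the IL-4 response, 0 were higher and Chia1, an acidic chitinase, was lower in both libraries. Among all genes the shares were 3.78% and 0.0895%. Chia1 had 571, 397 and 1173 CPM in S-phase-rule, mitotic-rule and comparison cells of the second library and 370, 227 and 998 CPM in the third. Chil4, a chitinase-like protein with a large share of the list's counts, had 6059 and 9799 CPM in S-phase-rule and comparison cells of the second library and 2516 and 2059 CPM in the third. The list summed to log2 folds of -0.29 and 0.12, and the value of the third library falls to -0.07 under TMM factors. Genes lower in both libraries also included Hmox1, the haem-degrading enzyme of oxidative stress (118, 55.8 and 241 CPM, then 50.5, 46.6 and 177 CPM), and Cdkn2b, given above.

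Growth-related lists stood closer to comparison cells. Of 20 measured genes of ribosome biogenesis and Myc targets, 5 passed as higher in both libraries and 0 as lower. They were Ran, Ranbp1 (243 and 68.5 CPM in S-phase-rule and comparison cells, then 390 and 95.1 CPM), which act in nuclear transport, and the nucleolar protein genes Nolc1, Nop56 and Nop58. The chaperone Npm1 had 0.11 and 0.23. The list summed to log2 folds of 0.44 and 0.77, with a median gene of 0.59 and 1.08. In the third library alone 12 of its genes passed as higher, against 6.31% of all genes measured there. In the second alone 5 did, against 4.48%. Of 14 genes of unfolded protein and integrated stress, 1 was higher, the chaperone cofactor gene Sdf2l1 (log2 folds 1.32 and 1.42). No measured gene passed in both libraries among 18 of glycolysis and hypoxia, 21 of oxidative phosphorylation, 16 of cholesterol and fatty acid synthesis, 11 of inflammation, 8 of Wnt, FGF and YAP targets, 6 of MHC class II, 2 of interferon response and 12 immediate early genes. Among all genes 3.78% passed as higher and 0.0895% as lower, so counts of 0 in lists of this size are near that share. Of 14 xenobiotic and oxidative stress genes, Hmox1 passed as lower.

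Markers of other cell types were low in S-phase-rule cells. Erythroid markers were at 0 in both libraries, ciliated markers summed to 5.70 and 8.48 CPM and neutrophil markers to 8.81 and 21.4 CPM. Of the 10 lymphocyte markers, 8 were at 0 and Cd79b held 135 and 146 CPM, with 138 and 149 CPM in comparison cells. Among fibroblast markers 9 of 10 were at 0, with Fn1 at 28.0 and 19.9 CPM. Macrophage markers summed to 286 and 188 CPM, against 409 and 229 CPM in mitotic-rule and 196 and 198 CPM in comparison cells, with 6 and 7 of 12 at 0 in S-phase-rule cells and Lyz1 holding 259 and 172 CPM. Endothelial markers summed to 88.1 and 99.2 CPM, against 72.5 and 71.0 CPM in mitotic-rule and 93.1 and 109 CPM in comparison cells, mostly as Esam. Mesothelial markers summed to 271 and 182 CPM, against 189 and 196 CPM and 316 and 384 CPM, mostly as Krt19, which is also on the transitional list. The list for airway secretory cells came to 151 and 111 CPM, against 103 and 94.3 CPM in mitotic-rule and 275 and 201 CPM in comparison cells. The nuclear RNA Malat1 stood at 5381 and 3793 CPM, against 4832 and 4452 CPM in mitotic-rule and 7300 and 5790 CPM in comparison cells. The part of these values in the differences above was not tested.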

How the data were processed

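The authors deposited 1 matrix of raw UMI counts per gene and cell barcode from 10x Genomics 3 prime libraries (v3.1), as whole numbers. Per the submitters' processing notes, bcl2fastq and Cell Ranger 6.0.1 were used, with builds GRCm38 and mm10. Cell calling and doublet removal by the authors are not given in the sources used here, and no doublet caller was run. Gene IDs were matched to GENCODE symbols on GRCm38, which left 147 of 52636 IDs unnamed with 0.00980% of UMIs.

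Counts were summed per class and library, scaled to CPM and compared as log2 folds with a pseudocount of 1 CPM. A gene passed with at least 2-fold difference and 20 CPM in either class in both libraries, which is a size rule and not a test. Intervals are exact Poisson for CPM, exact conditional without the pseudocount for ratios, and exact binomial (Clopper-Pearson) for shares. A count of 0 is given with its exact upper bound. The members and gene lists were chosen with earlier results of these data known. Genes named are the 15 rule genes, the 12 highest and 12 lowest passing genes with at least 50 CPM (only 2 were lower), up to 3 passing and 2 not passing per list, and 9 chosen for their role. Others were picked after their values were seen, and some genes that the rule names are not reported here. The size rule was tested on simulated counts with changes larger than 2-fold in genes with at least 50 CPM in comparison cells. That test does not cover smaller changes or lower levels. Python 3.11.15, edgeR 4.0.16 (TMM) and DESeq2 1.42.0 (size factors) in R 4.3.3 were used.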

Additional observations from a re-analysis of the deposited data

Results flagged for a closer look

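Some values had opposite directions in the second and the third library, with counting intervals on either side of 0. The difference between libraries was not tested, the libraries are not replicates, and all values are log2 folds of S-phase-rule over comparison cells. The IL-4 response list summed to -0.29 in the second and 0.12 in the third library. Glycolysis and hypoxia summed to 0.026 and -0.18, and Wnt, FGF and YAP targets to 0.14 and -0.10. Under TMM factors the 3 positive sums were below 0. Mthfd2, the mitochondrial folate enzyme, had -0.30 and 2.33, and the water channel gene Aqp5, an ATI marker, 0.11 and -0.49, of which the first is -0.17 under TMM factors.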

How the results depend on the processing

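No paired analysis was possible because each group has 1 library and no result comes from a test, and for the same reason no replicate could be left out. Of 91 alternative values of the main results, 65 stayed within 1.5 times or within their interval. Of the 169 genes higher than in comparison cells, with no minimum level there were 414, at 50 CPM 66, with a rule of 3% 293 and with one of 10% 95. Lower genes, 4 as reported, numbered 2 at a pseudocount of 5, at 50 CPM and at 10%, 23 with no minimum, 12 under TMM and 9 under DESeq2 factors, 27 at 3%, 24 in cells with at least 3 rule UMIs, 15 after thinning, and 0 and 1 when ranked by Pcna, Mcm3, Mcm6, Tyms and Hells or by the other 5 genes. Genes higher than in mitotic-rule cells, 37 as reported, numbered 98 with no minimum, 10 at 50 CPM, 63 at 3% and 16 at 10%. Lower ones, 148 as reported, numbered 235, 88 and, after thinning, 78. Replication genes outside the rule, 51 as reported, numbered 93 with no minimum and 23 at 50 CPM, and between 38 and 67 in the other 15 settings. Of these 51, 38 remained at 10% and 41 after thinning. Retnla terciles of the second library moved to 6.53% (lowest) and 4.68% (middle) on thinning. Most cells taken after thinning were tied at 1 rule UMI and picked in file order, which also applies to the thinned gene counts above. A rule of 6% fixes the number of cells, so shares of S-phase cells cannot be read from it, and few UMIs per cell limit how well single cells can be placed.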

Other observations

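Among the 81 genes higher than in comparison cells that no list held, several act in the cycle, and those named here were picked after their values were seen. The kinetochore gene Cenpk had 24.9 and 0.781 CPM in S-phase-rule and comparison cells of the second library and 35.8 and 1.93 CPM in the third. Slfn9, a Schlafen gene, had 39.4 and 3.00 CPM and then 50.5 and 3.06 CPM, and was also higher than in mitotic-rule cells (log2 folds 1.17 and 1.48). The transcription factor gene Tcf19 had 20.2 and 2.31 CPM and then 31.3 and 2.72 CPM, and over mitotic-rule cells 1.55 and 2.15. Wdr76, a WD-repeat gene, had log2 folds of 2.20 and 2.29 over comparison and 1.74 and 2.34 over mitotic-rule cells. The chromatin gene Dek had 136 and 42.1 CPM and then 196 and 54.8 CPM. The tubulin gene Tuba1b and the tubulin-binding Stmn1 were higher than in comparison cells (log2 folds 1.73 and 2.09, and 2.71 and 2.17), and both were lower than in mitotic-rule cells (Tuba1b -1.56 and -1.21, Stmn1 -1.57 and -1.18).

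Among genes of inflammation, the neutrophil attractant Cxcl5 had 1110 and 908 CPM in S-phase-rule and comparison cells of the second library and 1416 and 652 CPM in the third, and the iron-binding Lcn2 11225 and 10005 CPM and then 9801 and 7059 CPM. Hdc, which encodes the histamine-forming enzyme, stood at 147 and 88.7 CPM and then 164 and 83.4 CPM. These genes did not pass in both libraries.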
